A study of Mus musculus with 9 samples.

Results

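Surface pit cells line the gastric pits and secrete the mucus that coats the stomach, and the genes followed here are 7 genes of that cell type. They are Muc5ac, Muc1, Gkn1, Gkn2, Tff1, Psca and Foxq1. They were found on the array through every probe set whose annotation names exactly 1 of them, which gave 9 of the 45037 probe sets, since Gkn1 and Foxq1 have a pair each. All 7 genes passed the filter on dim signals and were among the 11006 genes tested. The rule that found their probe sets used no measured value, but the genes were chosen with earlier results of these data known.

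The 9 samples are mouse stomach cells of the strain C57BL/6, 1 Affymetrix array a sample, and form 3 groups of 3. The chief group is cells of the gastric corpus carrying the labels Mist1+ and Tomato+, where Mist1 is a transcription factor found in enzyme-secreting cells and Tomato a red fluorescent reporter, collected by flow sorting. The isthmus group is cells with the same labels and from the same region, taken after ablation of Lgr5+ cells, Lgr5 being a Wnt pathway receptor used as a stem cell marker. The parietal group is gastric parietal cells, which secrete acid. The parietal samples carry no allele or treatment in the labels, and the sources used here do not say how the cells were obtained. The alleles behind the reporter and the ablation, and the age and sex of the animals, are also not given, so the cells that the reporter marks are known only as Mist1+ Tomato+. Nothing in the labels ties the samples to separate animals, so the p-values measure spread between samples only, and that spread may be technical.

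Pit cell mucus is built from Muc5ac, a large gel-forming mucin that is folded and heavily O-glycosylated before secretion. Trefoil factors and gastrokines are small stable proteins secreted with it, and Tff1 and Gkn2 are known to bind each other. Muc1 stays in the apical membrane, Psca is held at the cell surface by a lipid anchor, and Foxq1 is a forkhead transcription factor of pit cells, known to be needed for normal Muc5ac expression in the mouse stomach. The set therefore holds 4 secreted proteins, a membrane mucin, an anchored surface protein and a nuclear factor.

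Values are log2 MAS5 signals, in which a difference of 1 is a doubling. Lgr5, the ablated cells' marker, gave 8.05, 7.54 and 9.36 on the chief arrays, 2.93, 4.83 and 5.97 on the isthmus arrays and 4.62, 6.26 and 4 on the parietal arrays, so the isthmus arrays lay below all chief arrays. Array medians ran from 55.7 to 104 in linear signal, and log2 values of the tested genes correlated at 0.806 to 0.831 among chief, 0.848 to 0.852 among isthmus and 0.885 to 0.895 among parietal arrays. Markers of acid secretion (8 genes, such as Atp4a) are given as the log2 of their summed linear signal, to which the brightest genes add most. It was 15.76 to 16.02 on parietal arrays, against 13.84 to 14.72 on chief and 13.44 to 14.4 on isthmus arrays. Markers of chief cells (7 genes, such as Pgc) were summed likewise. They gave 16.63 to 17.09, 14.96 to 15.55 and 14.65 to 15.12 on chief, isthmus and parietal arrays. Chief replicate 3 stood apart. It had Krt5, Krt14, Krt6a and Trp63, genes of squamous epithelium, at 9.96 to 11.32, where no other array passed 5.78, while other squamous genes of the list, Krt4, Krt13 and Sprr3, gave 3.47 to 5.2 on it and were no higher than elsewhere. It also had the collagen genes Col1a2 and Col3a1 at 13.2 and 11.83. Its pit cell values were not apart from the other chief arrays. Results without it are given for the pit cell genes and for some of the other genes.

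None of the 81 values of the pit cell genes lay below the array's median, but not all were bright. On parietal arrays Muc1 took ranks 9867 to 12663 and the dimmer Foxq1 probe set ranks 12090 to 17201. The main probe set of Gkn1 was the brightest of all 45037 on each chief array, took rank 2 on each isthmus array, and ranks 67 to 202 on parietal arrays. A rank orders probe set signals, not transcripts. Against chief cells, 7 of the 7 genes were lower in parietal cells, by 1.46-fold for Psca to 18.2-fold for Muc1, where 13.5% of all tested genes were called lower. In isthmus cells 4 were 1.5-fold to 1.65-fold lower, where 1.26% of all genes were called lower. By limma 0 of these 4 were called under quantile normalization or centring on array medians (1 gene at an unadjusted p under 0.05 each time), or without chief replicate 1 or isthmus replicate 1 (4 genes each time). In bulk samples, fewer cells of a type and less RNA per cell cannot be told apart.

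**Figure D1:**
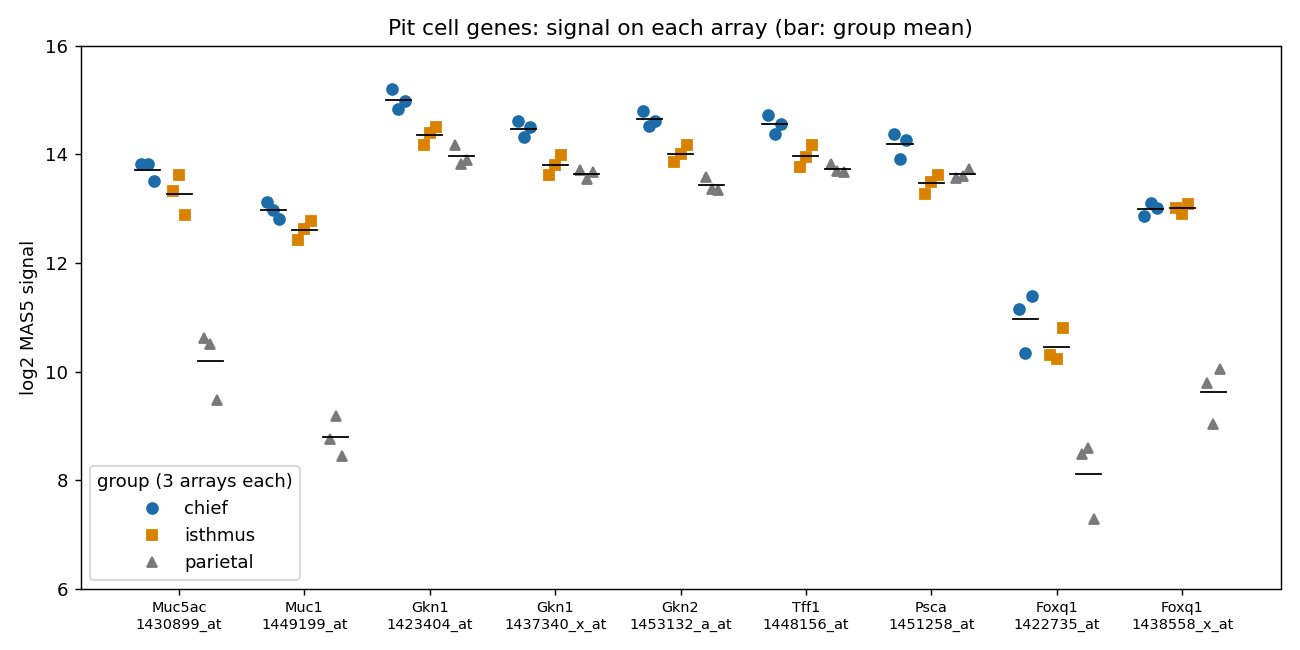
Log2 MAS5 signal (vertical axis) of the 9 probe sets of the 7 pit cell genes on each array, with a bar at each group's mean of 3 arrays. Muc5ac, Muc1 and both Foxq1 probe sets drop to between 7.28 and 10.62 on parietal arrays, while Gkn1, Gkn2, Tff1 and Psca stay between 13.34 and 14.17 there.

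Muc5ac, the gel-forming mucin, was read by 1 probe set. Its log2 signal was 13.82, 13.82 and 13.52 on chief arrays, 13.32, 13.62 and 12.88 on isthmus arrays, and 10.62, 10.51 and 9.48 on parietal arrays. The chief and isthmus ranges overlapped, and the 3 parietal arrays lay below all others. The parietal mean of 10.2 ± 0.63 (SD, n = 3) was 11.4-fold below the chief mean of 13.72 ± 0.17 (limma, Benjamini-Hochberg adjusted p = 4.38e-06) and 8.4-fold below the isthmus mean of 13.27 ± 0.37 (adjusted p = 1e-05). Isthmus against chief differed by -0.45 with a 95% interval of -1.04 to 0.15 (adjusted p = 0.439).

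Muc1, the membrane mucin, had the largest fold of the 7 genes in both parietal comparisons. Chief arrays gave 13.13, 12.98 and 12.82, isthmus arrays 12.43, 12.62 and 12.78, and parietal arrays 8.75, 9.18 and 8.44. The 3 groups did not overlap, although the chief and isthmus ranges nearly met. Parietal cells (8.79 ± 0.37, n = 3) were 18.2-fold below chief cells (12.98 ± 0.16; limma adjusted p = 3.19e-07) and 14.1-fold below isthmus cells (12.61 ± 0.18; adjusted p = 7.64e-07). The isthmus to chief difference of -0.37 (95% interval -0.86 to 0.13) did not pass the test (adjusted p = 0.442).

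Foxq1 was read by a pair of probe sets that disagree in level. The brighter gave 12.87, 13.1 and 13.01 on chief arrays, 13.02, 12.91 and 13.09 on isthmus arrays, and 9.79, 9.04 and 10.05 on parietal arrays. The dimmer gave 11.15, 10.35 and 11.4, then 10.31, 10.24 and 10.81, then 8.48, 8.6 and 7.28. On both probe sets the parietal arrays lay below all chief and isthmus arrays, and the chief and isthmus ranges overlapped. By the brighter probe set parietal cells were 10.3-fold below chief cells and 10.4-fold below isthmus cells (limma adjusted p = 1.83e-06 and 1.97e-06). By the dimmer, in the fit of every probe set on its own, they were 7.19-fold and 5.04-fold lower (adjusted p = 0.000473 and 0.00156). Isthmus against chief differed by 0.01 (95% interval -0.49 to 0.52) on the brighter and by -0.51 (-1.43 to 0.4) on the dimmer, and neither passed the test (adjusted p = 0.987 and 0.603).

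Gkn1 and Gkn2, the gastrokines, are neighbours on mouse chromosome 6 in RefSeq's assembly GRCm38.p6, with Gkn3 next to Gkn2. RefSeq's promoter table held 3 of the 7 genes, Muc1, Gkn1 and Gkn2, and their 250 bases before the start are shown. The gastrokine pair moved by similar amounts across the groups. Muc1 moved much more in the parietal comparisons but less in isthmus against chief. Capitals mark matches to GATAA (the motif of the GATA factors), TATAAA (the TATA box) and GGGCGG (the GC box), searched on both strands, so that a reverse GATAA reads TTATC. The sequences run 5′ to 3′ on the gene's strand, at chr6:87350916-87351165 (minus strand) for Gkn1, chr6:87373115-87373364 (plus strand) for Gkn2 and chr3:89228806-89229055 (plus strand) for Muc1.
Gkn1: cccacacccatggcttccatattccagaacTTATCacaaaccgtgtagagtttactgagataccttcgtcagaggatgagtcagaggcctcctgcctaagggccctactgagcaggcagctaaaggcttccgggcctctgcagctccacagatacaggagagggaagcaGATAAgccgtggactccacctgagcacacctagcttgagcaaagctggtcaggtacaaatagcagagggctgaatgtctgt
Gkn2: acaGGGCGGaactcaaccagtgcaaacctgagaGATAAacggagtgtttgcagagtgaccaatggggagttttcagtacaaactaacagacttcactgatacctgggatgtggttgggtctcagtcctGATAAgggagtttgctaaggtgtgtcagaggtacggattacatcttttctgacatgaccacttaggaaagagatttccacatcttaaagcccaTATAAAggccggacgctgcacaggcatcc
Muc1: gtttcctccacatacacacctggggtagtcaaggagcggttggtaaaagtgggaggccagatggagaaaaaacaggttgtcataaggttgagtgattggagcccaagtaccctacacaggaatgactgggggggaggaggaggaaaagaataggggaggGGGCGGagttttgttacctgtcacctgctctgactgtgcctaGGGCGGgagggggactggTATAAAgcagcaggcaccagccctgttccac

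Gkn1 held GATAA beginning 81 bases before its start and the reverse match beginning 220 bases before it. Gkn2 held GATAA beginning 217 and 122 bases before the start, TATAAA at 29 and GGGCGG at 247. Muc1 held TATAAA beginning 31 bases before its start and GGGCGG at 91 and 49. No match overlapped another, and TGTTTA, a forkhead motif, was not among the letters of these 3 windows. Over 32851 mouse promoter windows of 250 bases, 22.6% held GATAA, 12.4% TATAAA, 32.7% GGGCGG and 12% TGTTTA on either strand. The matches describe the letters and say nothing of which factors bind.

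The brighter Gkn1 probe set gave 15.21, 14.84 and 14.98 on chief arrays, 14.17, 14.39 and 14.5 on isthmus arrays, and 14.17, 13.83 and 13.9 on parietal arrays. Every chief array was above every other array, and isthmus and parietal arrays met at 14.17. Gkn1 was 1.58-fold lower in isthmus than in chief cells (difference -0.66, 95% interval -0.91 to -0.41; limma adjusted p = 0.0183) and 2.06-fold lower in parietal cells (difference -1.04; adjusted p = 5.23e-05). Parietal against isthmus was 1.31-fold lower (adjusted p = 0.0252), a call that the dimmer probe set did not share (difference -0.17, 95% interval -0.4 to 0.06; adjusted p = 0.301). This call was also lost without isthmus replicate 2 or 3 or parietal replicate 2 or 3 (adjusted p = 0.0736 to 0.0966). The dimmer probe set gave 14.32 to 14.61, 13.63 to 13.99 and 13.54 to 13.71 on chief, isthmus and parietal arrays, and was 1.79-fold lower in parietal than in chief cells (adjusted p = 0.00016).

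Gkn2 gave 14.8, 14.53 and 14.61 on chief arrays, 13.86, 14.01 and 14.18 on isthmus arrays, and 13.59, 13.37 and 13.34 on parietal arrays. The 3 groups did not overlap in any pair and were ordered chief, isthmus, parietal. Isthmus cells were 1.55-fold below chief cells (difference -0.63, 95% interval -0.86 to -0.4; limma adjusted p = 0.0153). Parietal cells were 2.32-fold below chief cells (adjusted p = 1.09e-05) and 1.5-fold below isthmus cells (adjusted p = 0.00151).

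Tff1, the pit cell trefoil factor, gave 14.72, 14.37 and 14.57 on chief arrays, 13.77, 13.96 and 14.18 on isthmus arrays, and 13.83, 13.69 and 13.68 on parietal arrays. Chief arrays were above all others, and isthmus and parietal arrays overlapped. Tff1 was 1.5-fold lower in isthmus than in chief cells (limma adjusted p = 0.029) and 1.77-fold lower in parietal cells (adjusted p = 0.000271). Parietal against isthmus differed by -0.24 (95% interval -0.48 to 0.01; adjusted p = 0.145).

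Psca, the anchored surface protein, ordered the groups differently. It gave 14.38, 13.92 and 14.26 on chief arrays, 13.28, 13.49 and 13.63 on isthmus arrays, and 13.57, 13.6 and 13.74 on parietal arrays, so that the mean was lowest in isthmus cells. The isthmus and parietal arrays overlapped, and all lay below the chief arrays. Isthmus cells were 1.65-fold below chief cells (difference -0.72; limma adjusted p = 0.0176) and parietal cells 1.46-fold below chief cells (difference -0.55; adjusted p = 0.00722). The second difference turned to 0.14 when arrays were centred on their medians and to 0.11 when they were scaled to epithelial genes. Parietal against isthmus differed by 0.17 (95% interval -0.1 to 0.44; adjusted p = 0.354).

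**Figure D2:**
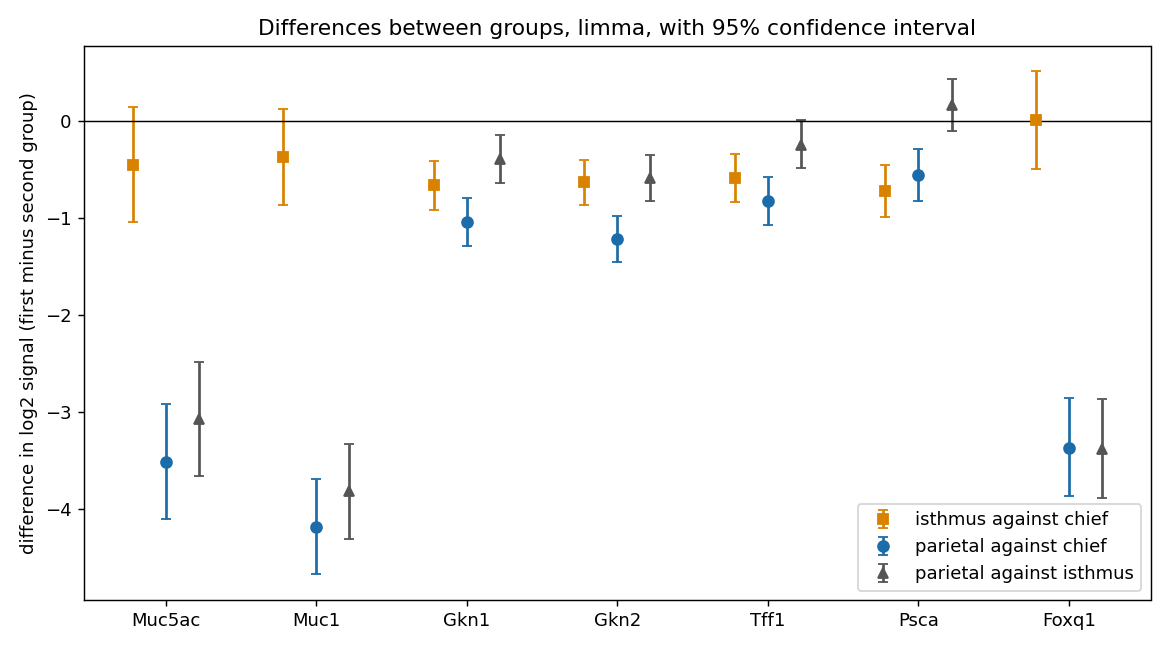
Difference in log2 signal between groups (vertical axis, first group minus second) for each of the 7 pit cell genes, with 95% confidence intervals from limma on 3 arrays a group. The parietal intervals of Muc5ac, Muc1 and Foxq1 end at or below -2.48, and those of Gkn1, Gkn2, Tff1 and Psca start at or above -1.45.

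In the parietal group the 7 genes fell into 2 ranges of fold, a grouping made after the values had been seen. Muc5ac, Muc1 and the brighter Foxq1 probe set were 8.4-fold to 18.2-fold below chief or isthmus cells, and the dimmer Foxq1 probe set lay between the ranges at 7.19-fold and 5.04-fold. Gkn1, Gkn2, Tff1 and Psca were 1.46-fold to 2.32-fold below chief cells. They were also the brightest of the 7 genes on chief arrays. Their chief means were 14.19 to 15.01, against 12.98 to 13.72 for Muc5ac, Muc1 and the brighter Foxq1 probe set. The highest value of any probe set on a chief array was 14.84 to 15.21. The part of signal level in the grouping was not tested. The log2 ratios of the pit cell genes within an array restate the same differences and are no separate test of the grouping, though a shift of a whole array cannot move them. The ratio of Muc1 to Gkn1 was -2.16 to -1.86 on chief arrays, -1.77 to -1.72 on isthmus arrays and -5.46 to -4.65 on parietal arrays. For Muc5ac to Gkn1 it was -1.46 to -1.02, -1.62 to -0.77 and -4.42 to -3.32. Ratios of genes within one range were not all constant across the groups. Within the first range, Muc5ac to Foxq1 overlapped across the groups (0.51 to 0.95 on chief, -0.21 to 0.71 on isthmus and -0.57 to 1.47 on parietal arrays), whereas Muc5ac to Muc1 was 0.69 to 0.84, 0.1 to 1 and 1.04 to 1.87, highest on the parietal arrays. Within the second range, the mean ratio on parietal arrays minus that on chief arrays was 0.17 for Gkn1 to Gkn2, -0.39 for Gkn2 to Tff1, -0.49 for Gkn1 to Psca and -0.66 for Gkn2 to Psca, with no overlap of arrays in any of these. Each of the last-named ratios gave p = 0.1 by an exact permutation test, the smallest that 3 arrays a group allow. The ratio of Gkn1's brighter to its dimmer probe set moved as well. It was 0.48 to 0.6 on chief and 0.23 to 0.46 on parietal arrays. A shift as small as 0.17 can therefore lie between probe sets of 1 gene. A ratio shows unequal change and not which gene changed.

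Counted by the test, parietal against chief called 7 of the 7 genes lower, against 13.5% of all tested genes called lower. Among the 73 other genes at least as bright as Psca, taken up below, 31.5% were called lower. The arrays of all 7 did not overlap, against 21.2% of all genes not overlapping and lower. The median difference of the 7 was -1.21, against -0.1 over all genes. Parietal against isthmus called 5 lower (15.4% of all genes), with a median of -0.58 against -0.09, and the arrays of 4 did not overlap (24.0% of all genes). Isthmus against chief called 4 lower, Gkn1, Gkn2, Tff1 and Psca, where 1.26% of all genes were called lower, with a median of -0.58 against 0.03. Here the arrays of 5 genes, these 4 and Muc1, did not overlap, against 10.5% of all genes. The comparisons share arrays, so their values for the same gene are not independent.

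The 4 isthmus calls moved with very bright genes in general. Among the 73 other genes at least as bright as Psca, with a mean of 13.76 or more over the 9 arrays, the median isthmus to chief difference was -0.42 (quartiles -0.49 and -0.33), and 37% were called lower. Among the 4771 genes with a mean from 9 to 12 it was 0.14, with 0.776% called lower. Gkn1, Gkn2, Tff1 and Psca, with means of 13.76 to 14.44, lay at -0.72 to -0.58, below the lower quartile of those bright genes. After quantile normalization, which gives all arrays one distribution, the bright genes had a median of 0.05, Gkn1, Gkn2 and Tff1 lay at -0.05 to -0.03, and Psca at -0.31 (adjusted p = 0.0901). In parietal against isthmus the 73 genes had a median of 0.36, above the -0.58 to 0.17 of these 4, and 42 of the 73 were called higher. In parietal against chief the 73 had a median of -0.11 (quartiles -0.36 and 0.24), with 31.5% called lower. There Gkn1, Gkn2, Tff1 and Psca lay at -1.21 to -0.55. The part of the shift of bright genes in the calls of these 4 genes was not tested. Without chief replicate 3, isthmus against chief called 2 of the 4, Gkn1 and Gkn2.

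**Figure D3:**
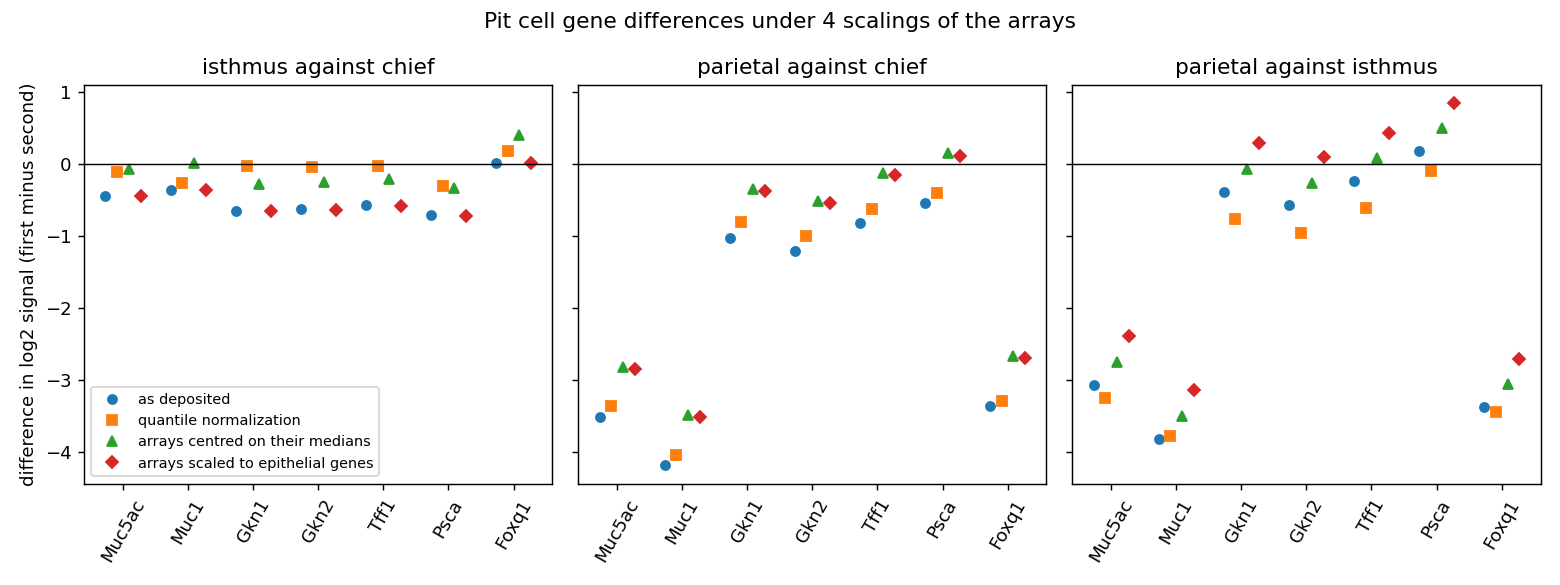
Difference in log2 signal (vertical axis, first group minus second) of each pit cell gene under 4 scalings of the arrays, shown by marker shape, 1 panel a comparison. The parietal differences of Muc5ac, Muc1 and Foxq1 stay at or below -2.4 under each, whereas Psca against chief cells crosses 0, as do Gkn1, Gkn2, Tff1 and Psca against isthmus cells.

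The parietal differences of Muc5ac, Muc1 and Foxq1 were called under all 21 alternatives. Against chief cells Muc1 ranged from -4.38 to -3.49, Muc5ac from -3.73 to -2.82 and Foxq1 from -3.58 to -2.67. When each array was centred on its median, parietal against chief called 4 of the 7 genes lower in place of 7. Centring moved the median of all genes from -0.1 to 0.59, and the share of calls that were higher from 44% to 79.3%. Relative to the median of all genes, Gkn1 lay at -0.94, Tff1 at -0.72 and Psca at -0.45. Centring shifts all genes of an array alike, so these relative values cannot change with it and are no check of the calls. For isthmus against chief, centring moved the median of all genes from 0.03 to 0.41 and the share of calls that were higher from 23.6% to 83.3%.

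Other genes of pit cells were taken as a list of 10, of which 9 were tested. Parietal against chief called 4 lower and 5 were not called, with a list median of -0.93, where 13.5% of all genes were called lower. The 5 not called were Vsig1 (-0.93), Sult1c2 (-0.38), Anxa10 (-0.17), Ctse (0.02) and Tspan8 (0.07). Capn8 and Capn9, gastric calpain proteases, were 18.6-fold and 6.76-fold lower (limma adjusted p = 0.000275 and 0.000561). Krt20, a keratin of surface epithelium, was at least 5.23-fold lower (adjusted p = 0.0172), where "at least" sets any array below its own median signal to that median. Its call was lost without chief replicate 3 (adjusted p = 0.0687) and without parietal replicate 1 or 3. Under centring the list split into 3 higher and 3 lower. Against isthmus cells 5 were lower (15.4% of all genes), with Capn8 at 30.9-fold and a list median of -1.27. Ctse, the protease cathepsin E, was 1.51-fold higher there (limma adjusted p = 0.00186). It was very bright, with means of 14.12, 13.54 and 14.14 on chief, isthmus and parietal arrays. Of the 73 very bright genes above, 42 were called higher in parietal against isthmus. Isthmus against chief called 1 gene of the 9, Ctse, lower by 1.49-fold (adjusted p = 0.0314), with a list median of 0.18. Here 1.26% of all genes and 37% of the 73 very bright genes were called lower. That call was lost under quantile normalization (adjusted p = 0.289), centring, epithelial scaling, no intensity trend and a fit of only the groups compared, and without chief replicate 1, 2 or 3 or isthmus replicate 1 or 2.

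Of 12 other mucins, trefoil factors and gastrokines, 2 passed the filter on dim signals, Tff2, the trefoil factor of mucous neck cells, and Gkn3, a gastrokine of the same cells. Tff2 was 3.77-fold lower in parietal than in chief cells (limma adjusted p = 0.000153) and 2.73-fold lower than in isthmus cells (adjusted p = 0.000877). Gkn3 was at least 11.5-fold lower in parietal than in chief cells (adjusted p = 0.0179), which was not called when chief replicate 3 was left out (adjusted p = 0.0691). In isthmus against chief neither was called, nor had either an unadjusted p under 0.05. The genes beside Muc5ac in the mucin cluster of chromosome 7 were dim. Muc2, the intestinal gel-forming mucin, gave 2.72 to 6.53 and Muc5b, that of the airways, 0.6 to 5.63 over the 9 arrays. Tff3, the intestinal trefoil factor, gave 8.67, 5.39 and 5.85 on chief arrays and 2.16 to 3.73 on the others. Muc6 was not analysed here.

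Mucins need folding and sugar-adding enzymes, and 21 of 25 such genes were tested. Parietal against chief called 13 lower and 1 higher, with a median of -2.14, and parietal against isthmus the same counts with a median of -1.89, where 13.5% and 15.4% of all genes were called lower. Under centring the counts were 9 lower and 4 higher against chief cells and 13 and 1 against isthmus cells, and under epithelial scaling 7 and 3, and 7 and 2. Galnt12, which starts O-glycan chains, was at least 13.5-fold lower than in chief cells (limma adjusted p = 0.000861), and B3gnt3, which extends them, 12.6-fold lower (adjusted p = 1.65e-05). Fut4, a fucosyltransferase, was at least 14-fold lower (adjusted p = 0.00568). St3gal1, which caps O-glycans with sialic acid, was called higher, at least 7.29-fold against isthmus cells (adjusted p = 0.00277). It passed the filter only through the 3 parietal arrays, being below the array median on all others, so it was not tested when any parietal array was left out, and the list had 0 genes higher with the mean of a gene's probe sets. Isthmus against chief called 0 of the 21 by limma, with 2 at an unadjusted p under 0.05. Agr2, the disulfide isomerase used in mucin folding, gave -0.49 there (adjusted p = 0.582) and C1galt1, which builds the core 1 O-glycan, 0.09 (adjusted p = 0.795).

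Of 18 transcription factors of mucous and gastric epithelium, 17 were tested. In parietal against chief 12 were lower and 5 not called, with a median of -2.02, and in parietal against isthmus 13 were lower, with a median of -1.76, where 13.5% and 15.4% of all genes were called lower. Under centring 9 were lower and 1 higher against chief cells and 10 lower and 3 higher against isthmus cells, and under epithelial scaling 9 and 0, and 7 and 3. Klf4, a differentiation factor of surface epithelia, was 18.4-fold below chief cells (limma adjusted p = 2.22e-06), and Spdef, a factor of mucous cells, at least 17.5-fold (adjusted p = 0.00018). Ehf, an epithelial ETS factor, was 17.4-fold below isthmus cells (adjusted p = 8.99e-05). Hnf4g, a nuclear receptor of gut epithelium, was at least 1.68-fold below chief cells (adjusted p = 0.0463), and it was not called under quantile normalization (adjusted p = 0.0941). Isthmus against chief called 0 of the 17 by limma, with 5 at an unadjusted p under 0.05. There Klf4 differed by -0.15 (adjusted p = 0.848) and Foxa1, a forkhead factor of gut endoderm, by -0.06 (adjusted p = 0.873).

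Psca belongs to the Ly6/uPAR family of surface proteins, of which 7 of 13 other genes were tested. Lypd8, an anchored protein of gut surface epithelium, was 43.5-fold lower in parietal than in chief cells and 42.5-fold lower than in isthmus cells (limma adjusted p = 3.19e-07 and 4.94e-07). Plaur, the urokinase receptor, was at least 2.57-fold below chief cells (adjusted p = 0.0112; 0.052 without chief replicate 3) and at least 8.88-fold below isthmus cells (adjusted p = 0.00059). Ly6e, a widely expressed member, was 7.14-fold below chief cells and 2.78-fold below isthmus cells (adjusted p = 9.5e-06 and 0.000763), and it was 2.57-fold lower in isthmus than in chief cells (adjusted p = 0.0204; 0.0524 under quantile normalization). The other 4 tested genes were called in no comparison. Without chief replicate 3, 5 genes of the list were tested, and parietal against chief called 2 lower and 1 higher. The list medians were -0.03 for isthmus against chief, -0.84 for parietal against chief and -1.47 for parietal against isthmus.

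**Figure D4:**
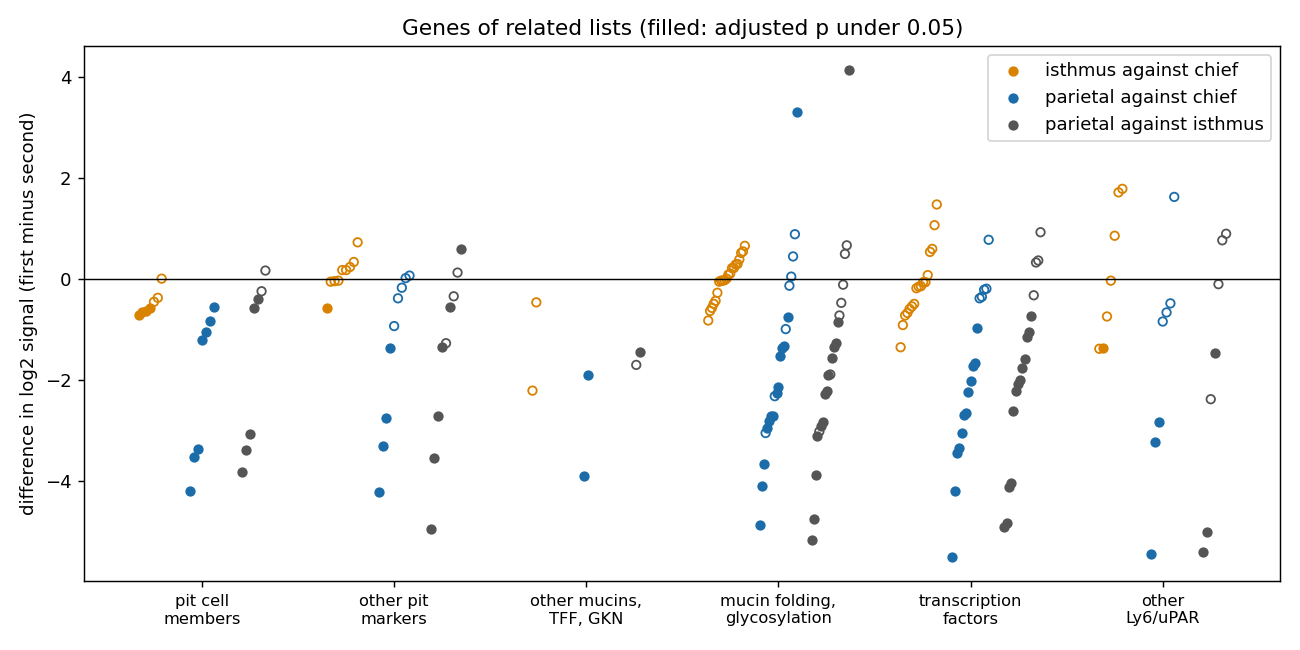
Difference in log2 signal (vertical axis, first group minus second) of each tested gene of 6 lists, colored by comparison and filled where the limma adjusted p is under 0.05. Filled isthmus points number 4 among the pit cell genes, 1 each among the other pit markers and the Ly6/uPAR proteins, and 0 elsewhere.

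Genes with a 9-array pattern most like the mean of the pit cell genes were ranked by the root mean square difference of mean-centred log2 values. The nearest was Lgals2, a galectin, at 0.16, with 14.07, 14 and 14.03 on chief, 13.44, 13.63 and 13.62 on isthmus and 11.84, 11.7 and 11.39 on parietal arrays. Ppp2r5d, Clu, Tmsb10, Rpl22l1 and Hsd17b11 followed at 0.2 to 0.25. The pit cell genes themselves lay 0.46 (Gkn2) to 1.03 (Muc1) from their own mean pattern. The genes above were picked as the closest of all tested genes, so their smaller distances are no comparison with the pit cell genes. Taken singly, Muc5ac was nearest to Tspan13 at 0.22, Muc1 to Fam83e at 0.26 and Foxq1 to Gsdma2 at 0.21. Gkn1 and Gkn2 were both nearest to Ssr2, at 0.1 and 0.11, Tff1 to Rpl27a, a ribosomal protein gene, at 0.1, and Psca to AY036118 at 0.09.

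Markers of several other cell types were lower on parietal arrays too, but not those of all cell types. Each list is given as the log2 of its summed linear signal. Endocrine markers (7 genes, such as Chga) gave 15.31 to 16.26 on chief, 14.2 to 15.37 on isthmus and 8.83 to 9.4 on parietal arrays. Mucous neck markers (2 genes, the Tff2 and Gkn3 already given above) gave 13.68 to 14.78, 13.43 to 13.68 and 11.42 to 12.78. Tuft markers (5 genes) gave 10.58 to 11.94, 11.13 to 11.77 and 7.54 to 8.88. Of the 2 tuft genes tested, Avil was called lower in both parietal comparisons and Dclk1 was not (6.38 on parietal, 4.58 on chief and 6.83 on isthmus arrays on average). Genes of dividing cells (7 genes, such as Mki67) gave 13.56 to 14.31, 14.1 to 14.66 and 11.64 to 11.82. Epithelial markers (7 genes, such as Epcam) varied less, with 16.03 to 16.33, 15.9 to 16.21 and 15.46 to 15.56. Leukocyte markers (7 genes) gave 6.64 to 10.12, 6.43 to 7.51 and 7.83 to 8.77 on chief, isthmus and parietal arrays. Fibroblast markers (7 genes) gave 7.45 to 14.66, 6.35 to 7.4 and 7.22 to 8.48, and squamous markers (8 genes) 7.75 to 12.83, 6.9 to 8.07 and 7.02 to 8.11. These last lists were mostly dim. The part of these cell types in the differences of the pit cell genes was not tested.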

How the data were processed

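Total RNA of the 9 samples was labelled with biotin and hybridised to 1 Affymetrix array each, per the labels' protocols. The authors deposited log2 signals, 1 value a probe set, from MAS5 according to the submitters' processing notes. Its version, the log step and the floor at 0 are items the sources used here do not give. Base 2 was settled from the values, since the signal mean trimmed by 2% at each end was then 496 to 497 on every array. Zeros made up 1.99% to 3.91% of each array, none of them of a pit cell gene.

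The platform annotation named the probe sets, of which 34945 named 1 gene, 932 several and 9160 none, and a RefSeq table (GRCm38.p6) matched 34741 and changed 0 symbols. A gene's value was that of its probe set with the highest mean. Of 18193 genes, the 11006 with a signal over their array's median on 3 or more of 9 arrays were tested. One fit over the 9 arrays (limma 3.58.1 in R 4.3.3, lmFit and eBayes with an intensity trend, 6 residual degrees of freedom) gave two-sided p-values, adjusted by Benjamini-Hochberg over all tested genes of a comparison, with calls at an adjusted p under 0.05. The script was tested on simulated data.

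Groups and replicate numbers came from the sample titles, and the number of arrays limits the precision. The pit cell genes and the lists were chosen with earlier results of these data known. From each of the 5 related lists, the genes named are up to 3 called genes with the largest difference per comparison, or the 2 brightest where none was called. In the list of other pit cell genes, those not called in parietal against chief are named as well. The nearest 6 genes to the mean pattern and the nearest to each pit cell gene are also named. The genes given for chief replicate 3 and for the untested mucins were chosen after their values were seen. Alternatives covered scaling, pseudocounts of 16 and 64 on the linear signal, filters, probe set rules, the samples in the fit, a replicate block, the intensity trend and leaving out each array. Scaling to epithelial genes, and the array median as the bound for folds given as "at least", were chosen after seeing the data.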

Additional observations from a re-analysis of the deposited data

How the results depend on the processing

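Over 21 alternatives, the parietal differences of Muc5ac, Muc1 and Foxq1 kept their direction and call against both other groups. The count of pit cell genes called in isthmus against chief, 4 as deposited, was 0 by limma under quantile normalization, under centring on array medians, without the intensity trend and under scaling to epithelial genes, with 1, 1, 4 and 4 genes at an unadjusted p under 0.05. It was 0 to 4 when single arrays were left out. In parietal against chief the count of 7 was 4 under centring, 3 under epithelial scaling and 7 without any 1 array. In parietal against isthmus the count of 5, all lower, was 3 without the intensity trend and 4 to 5 without single arrays. Under centring and under epithelial scaling it was 4, with Muc5ac, Muc1 and Foxq1 lower and Psca higher, and Gkn1 and Gkn2 not called (-0.07 and -0.27 under centring). Directions turned as follows, and the cause was not tested. In parietal against isthmus, Psca was -0.11 under quantile normalization, Tff1 was 0.08 under centring, and Gkn1, Gkn2 and Tff1 were 0.28, 0.09 and 0.43 under epithelial scaling. In parietal against chief, Psca was 0.14 under centring and 0.11 under epithelial scaling. In isthmus against chief, Muc1 was 0.01 under centring, and Foxq1 was -0.25 as the mean of its probe sets, -0.05 without chief replicate 1 and -0.03 without isthmus replicate 3 (-0.05 to 0.07 over single arrays left out). Calls were gained in parietal against isthmus by Tff1 under quantile normalization (-0.61) and by Psca under centring (0.49) and epithelial scaling (0.84). Under centring the 73 other genes at least as bright as Psca had a median of 0.67 in that comparison, above Psca's 0.49, and 57 were called higher. Over all genes, isthmus against chief called 182 as deposited, 17 without chief replicate 1, 36 without isthmus replicate 1, 86 without isthmus replicate 2, 105 without chief replicate 3, 43 without the trend, 20 under epithelial scaling, 276 under centring, 91 with only the groups compared and 321 with a pseudocount of 64. Parietal against chief called 2664, and 3907 under centring. With the replicate block the counts of pit cell genes called stayed at 4, 7 and 5. Same-numbered arrays deviated together little (0 of 9 pairs had a correlation of deviations over 0.1). Unlike-numbered arrays were not set beside them, so this cannot show whether the numbers pair the samples. With 3 arrays a group and no detection calls or scanner files used here, differences of dim genes are limited most.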
